A study of Mus musculus with 25 samples.

Results

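The 482 autosomal megabases described here were those richest in CpG positions read by reduced representation bisulfite sequencing (RRBS) of mouse haematopoietic stem cells (HSCs). Autosomes were divided into 1-Mb bins on mm9, the 2413 bins with at least 50 distinct CpG positions over 25 libraries were ranked by that number, and the highest 20% were taken. No methylation value entered the choice. The 482 bins held 901417 of 2014546 ranked CpG positions, or 44.7%.

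All 25 libraries came from HSCs of C57Bl/6 mice, and the study set ontogeny and ageing beside a history of forced proliferation. Fetal liver HSCs were taken at embryonic day e14.5 in 2 libraries. Bone marrow HSCs were taken from young mice aged 3.5 months (2 libraries) and from old mice aged 25 months (2 libraries). Further mice aged 3.5 months were followed for 6 months and received 0 (n = 3), 2 (n = 3) or 4 doses (n = 2) of 5-fluorouracil (5-FU), a drug that kills dividing cells and brings surviving HSCs into cycle. Bone marrow HSCs were also recovered after transplantation of 10 (n = 3), 50 (n = 1) or 500 (n = 1) young cells, or of 10 (n = 2), 50 (n = 1) or 500 (n = 3) cells of old donors. The labels give no age or genotype of the recipients and no time after transplantation. Nothing says that replicate libraries came from separate animals, so p-values measure the spread between libraries, which may be technical. Libraries held 22835325 to 105187091 reads over 1246435 to 1619487 CpGs, and no purity check was possible because no expression was measured.

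In mammals, DNA methylation lies mostly on cytosines of CpG pairs. Most CpGs are methylated, whereas dense clusters of CpGs at gene starts, called CpG islands, are usually free of methylation. RRBS samples fragments between restriction sites that contain a CpG, so a megabase with many covered CpGs is as a rule one with many islands and genes. After each cell division the maintenance methyltransferase copies the marks to the new strand, and methylation of CpG-poor, late-replicating DNA is known to decline in cells that divide many times.

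The richest bins held 1201 to 5913 CpG positions, with a median of 1661.5, against a median of 529 in the other 1931 bins. The bin with the most positions was chromosome 10, 79000001 to 80000000, with 5913, and its neighbour from 80000001 to 81000000 held 5702. The next 3 were chromosome 11, 120000001 to 121000000 (4151 positions), chromosome 7, 52000001 to 53000000 (4101), and chromosome 8, 73000001 to 74000000 (3956). The last 3 bins inside the limit held 1202, 1202 and 1201 positions, and the first 3 outside held 1200, 1196 and 1195, so the limit fell within a continuous distribution.

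**Figure D1:**
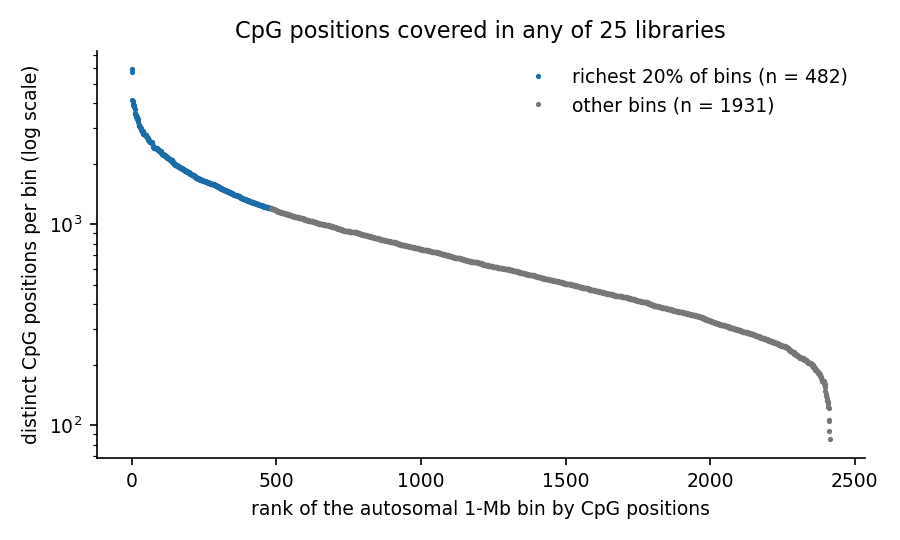
Number of distinct CpG positions (y axis, log scale) of each of the 2413 ranked 1-Mb bins against its rank (x axis). The 482 richest bins, in blue, range from 1201 to 5913 positions and pass without a gap into the other bins, in grey.

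Rich bins were clustered along chromosomes. Of the 482, 371 (77.0%) had a neighbouring bin that was also among the 482, and the longest unbroken run was 14 bins on chromosome 4, from 128000001 to 142000000, with 33507 CpG positions. A run of 13 bins covered chromosome 15, 73000001 to 86000000. The share of a chromosome's ranked bins that were rich ran from 8.94% on chromosome 14 (11 of 123) to 39.5% on chromosome 11 (47 of 119). Chromosomes 17 and 5 followed at 30.1% and 30%.

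Methylation was summarised in 1-kb tiles with at least 3 CpGs that had 5 or more reads in all 25 libraries. A tile's level is the percent of its reads that were methylated, and a difference between levels is given in percentage points. The richest bins held 22421 such tiles and the other bins 31367, a median of 42 tiles per rich bin against 15. Rich bins were far more often unmethylated: 52.9% of their tiles lay under 20% in fetal HSCs, 15.2% between 20% and 80% and 31.9% at 80% or more. In the other bins the shares were 30.6%, 10.1% and 59.3%. Tiles with 30 or more CpGs made up 5.07% of tiles in rich bins and 3.20% elsewhere. Reads per CpG were also higher in rich bins, with a median of 48.2 against 42.8 elsewhere. Of the rich-bin tiles at 80% or more in fetal HSCs, 6907 had fewer than 10 CpGs and 248 had 10 to 29.

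The rich bins differed widely among themselves. Their mean tile level in young HSCs ran from 12.3% to 75.7%, with a median of 38.7%, and the share of tiles under 20% in fetal HSCs ran from 10.7% to 87.8%. Across the 482 bins, the number of CpG positions was only weakly related to the level in young HSCs (Spearman's rho -0.206) and to the share of low tiles (rho 0.152). These correlations are across bins of the same libraries, which are not independent, and are given as a description.

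Mean levels of the tiles in rich bins were lowest after transplantation and highest in old HSCs. The fetal libraries read 38.5% and 38.6%, the young libraries 38.2% and 39.02%, and the old libraries 41.1% and 40.8%. The 0-dose libraries read 40.2%, 38.8% and 38.9%, the 2-dose libraries 38.9%, 38.1% and 39.2%, and the 4-dose libraries 39.5% and 40.2%. Every untransplanted library was therefore between 38.1% and 41.1%. After transplantation of young cells the levels were 35.0%, 35.9% and 34.7% with 10 cells, 36.5% with 50 and 36.3% with 500. After transplantation of old cells they were 35.2% and 36.2% with 10 cells, 36.2% with 50, and 36.7%, 37.5% and 36.6% with 500. All 11 transplanted libraries lay below all 14 others, and old and young transplanted cells overlapped.

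**Figure D2:**
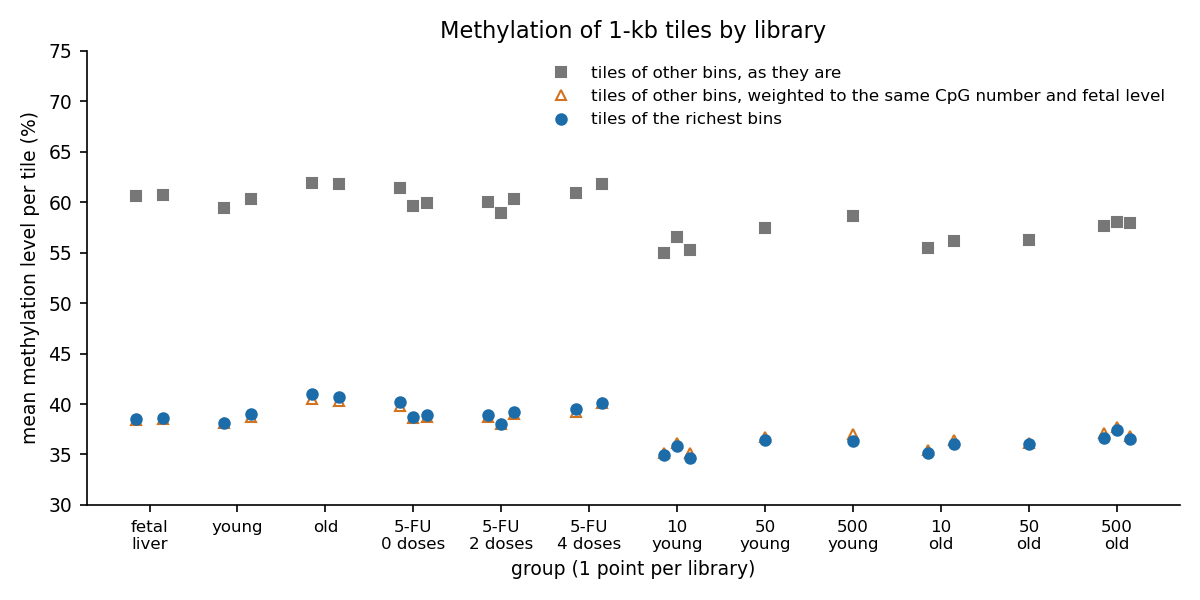
Mean methylation level per tile in percent (y axis, not starting at 0) for each of the 25 libraries by group (x axis), for matched tiles of the richest bins (circles), for tiles of other bins weighted to the same CpG number and fetal level (triangles), and for tiles of other bins as they are (squares). In rich bins the 11 transplanted libraries lie below all others, and the triangles follow the circles closely.

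With donor age as a stratum, transplanted HSCs read 3.73 points below young and old HSCs in rich bins (36.0% against 39.8%; difference -3.73, two-sided exact permutation test over 588 labellings, p = 0.0017, the smallest possible, Benjamini-Hochberg adjusted p = 0.0111 over 13 tests). The difference was -2.89 points for young donors (5 against 2 libraries, exact permutation p = 0.0476, adjusted 0.103) and -4.57 points for old donors (6 against 2, exact permutation p = 0.0357, adjusted 0.103). Both raw p-values were the smallest those designs allow. With reads summed over all CpGs, so that deep CpGs count more, the difference over both donor ages was -2.94 points with an adjusted exact permutation p of 0.101. The size of the difference depended on which tiles entered: it was -1.82 points with 5 or more CpGs per tile, -2.42 at 10 reads per CpG, -4.99 without the 5-FU libraries and -7.55 without tiles near low ones, the last 2 settings being chosen after seeing the data. Over the other settings adjusted p ran from 0.00850 to 0.0111, and up to 0.0442 with 1 library left out. The difference between the donor ages' effects was -1.68 points and did not pass the threshold (exact permutation p = 0.483, adjusted 0.571).

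Highly methylated tiles were fewer in transplanted libraries. Tiles at 80% or more in the library itself made up 31.2% and 32.9% of rich-bin tiles in young HSCs and 35.4% and 35.0% in old HSCs. They made up 20.7%, 23.7% and 21.0% after 10 young cells, 26.4% after 50 and 27.6% after 500. After old cells the shares were 21.4% and 22.6% with 10 cells, 23.9% with 50, and 25.5%, 27.3% and 27.5% with 500. All transplanted libraries lay below all untransplanted ones, whose lowest share was 29.3%. Tiles under 20% made up between 51.9% and 54.2% in all 25 libraries. Tiles between 20% and 80% made up 12.6% to 15.03% in young and old HSCs and 18.2% to 26.3% in transplanted libraries, which overlapped with 1 library of 2 doses of 5-FU at 18.3%.

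Other comparisons of this mean gave no call. Bone marrow without transplantation read 0.880 points above fetal liver (12 against 2 libraries, exact permutation p = 0.220, adjusted 0.357). The 2- and 4-dose libraries read 0.103 points below the 0-dose libraries (5 against 3, difference -0.103, exact permutation p = 0.839). Transplanted old cells read 0.697 points above transplanted young cells (6 against 5, exact permutation p = 0.156, adjusted 0.289), with more 500-cell libraries in the old arm. Old HSCs were 2.38 points above young HSCs (41.0% ± 0.209, SD, n = 2, against 38.6% ± 0.613, n = 2). The groups did not overlap, but 2 against 2 libraries cannot reach a p under 0.333. Young libraries had the most reads in rich-bin tiles, a median of 88.0 and 104 per CpG against 49.4 and 41.0 in old libraries. At 108 tiles with 10 or more CpGs and intermediate level in every library, young libraries also read 43.5% and 44.0% and old libraries 51.2% and 52.5%. The part of depth and of the shift at these 108 tiles in the old-young difference was not tested on the mean.

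Raw losses after transplantation of 10 cells were smaller in rich bins, with their larger share of low tiles, than elsewhere. Over all tiles, 10 young cells minus young HSCs gave -3.37 points in rich bins and -4.26 in the others, and 10 old cells minus old HSCs gave -5.25 and -6.07. With 500 old cells the values were -4.04 and -3.98. To compare like tiles, 22066 of the 22421 rich-bin tiles were set against tiles of other bins weighted to the same classes of CpG number and fetal level, over 58 combined classes. The remaining 355 had too few counterparts.

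Against like tiles, the rich bins were higher in every untransplanted library and lower in every transplanted one. The fetal libraries, which set the matching and are a description, were 0.104 and 0.114 points above. The young libraries were 0.0766 and 0.275 points above and the old libraries 0.477 and 0.392. The 8 libraries of the 5-FU experiment were 0.0633 to 0.339 points above, a range that held the young and fetal libraries but not the old ones. After 10 young cells the rich bins were at -0.258, -0.337 and -0.500 points, after 50 at -0.297 and after 500 at -0.734. After old cells they were at -0.270 and -0.311 with 10 cells, -0.0615 with 50, and -0.512, -0.279 and -0.350 with 500. No transplanted library overlapped with an untransplanted one, though the 50-cell library of old donors was close to 0.

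**Figure D3:**
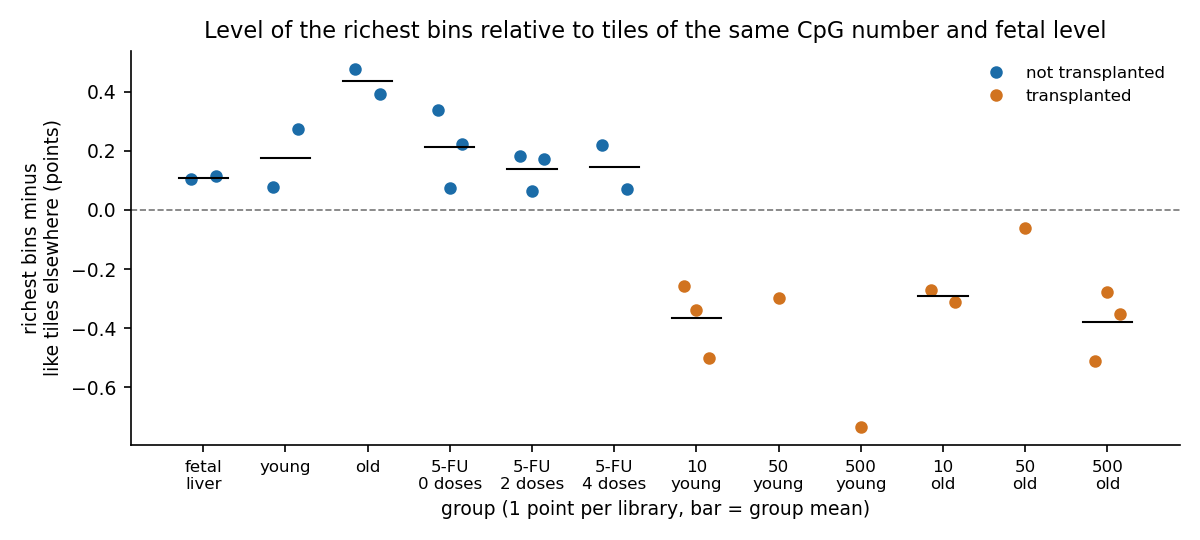
Mean level of the richest bins minus that of tiles elsewhere with the same CpG number and fetal level, in percentage points (y axis), for each library by group (x axis), with bars at the means of groups of 2 or more. All 14 untransplanted libraries lie above 0 and all 11 transplanted libraries below.

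Within donor age, the matched difference was 0.666 points lower after transplantation (-0.361 against 0.305; difference -0.666, exact permutation p = 0.0017, the smallest possible, adjusted p = 0.0111). It was -0.601 points for young and -0.732 for old donors, each at the smallest p its design allows (exact permutation p = 0.0476 and 0.0357, both adjusted to 0.103). The effect did not differ detectably between donor ages (-0.131 points, exact permutation p = 0.748), nor did 5-FU doses change it past the threshold (-0.0706 points, exact permutation p = 0.357). With tiles matched on CpG number but not on fetal level, the difference turned to 0.162 points (adjusted exact permutation p = 0.943). Over the other settings adjusted p was 0.00850 to 0.0111, and up to 0.0442 with 1 library left out. The direction thus held only where tiles of equal fetal level were compared. When tiles were also matched on reads per CpG, an alternative chosen after seeing the data, it was -0.618 points.

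The matched difference was present at each starting level, in tests added after the values were seen. In tiles under 20% in fetal HSCs it was -0.254 points, in tiles between 20% and 80% -0.848 points, and in tiles at 80% or more -1.27 points (each exact permutation p = 0.0017, adjusted over 3 tests 0.0017, the smallest possible). Matched on CpG number only, the middle class was at -0.0413 points (adjusted exact permutation p = 0.889), and over its other settings adjusted p was at most 0.00510. Rich-bin tiles of the high class stood at 88.8% and 90.9% in young HSCs and at 80.7% to 85.9% after transplantation of young cells. In old HSCs they stood at 92.3% and 92.2%, and at 81.3% to 85.6% after transplantation of old cells. By chromosome, 18 of 19 had a negative matched difference, from -1.13 points on chromosome 1 and -1.07 on chromosome 4 to -0.150 on chromosome 6. The exception was chromosome 18 at 0.0414 points, with 0.194 for young and -0.111 for old donors over 348 tiles.

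The pattern was graded over the whole ranking in CpG-poor tiles. All bins were split by CpG positions into 5 classes of 482 to 484 bins, and tiles with fewer than 10 CpGs and 80% or more in fetal HSCs were followed (6907 in the richest class, 3076 in the sparsest). After 10 young cells the differences from young HSCs were -8.50, -8.05, -7.27, -6.55 and -6.30 points from the richest to the sparsest class. After 10 old cells, against old HSCs, they were -10.7, -10.1, -9.16, -8.30 and -8.21 points. After 500 old cells they were -7.37, -6.55, -5.67, -5.012 and -5.002 points. In all 3 comparisons the largest loss was in the richest megabases, whereas over all tiles the 10-cell comparisons ran the other way, from -3.37 to -4.98 points for young and from -5.25 to -6.91 for old cells.

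In young and old HSCs these CpG-poor tiles were more methylated in the richest than in the sparsest bins, by 0.226 and 1.14 points in the young and 1.45 and 1.22 in the old libraries. Fetal libraries were at -0.0758 and 0.181 points, and the 8 libraries of the 5-FU experiment at -0.629 to 0.438. All 11 transplanted libraries were negative, from -2.69 to -0.607 points. Their range touched that of the untransplanted libraries only through the second 0-dose library, at -0.629. Old minus young was 2.42, 2.001, 1.79, 1.68 and 1.77 points from the richest to the sparsest class, with a spread between young libraries of 1.49 (SD) in the richest.

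**Figure D4:**
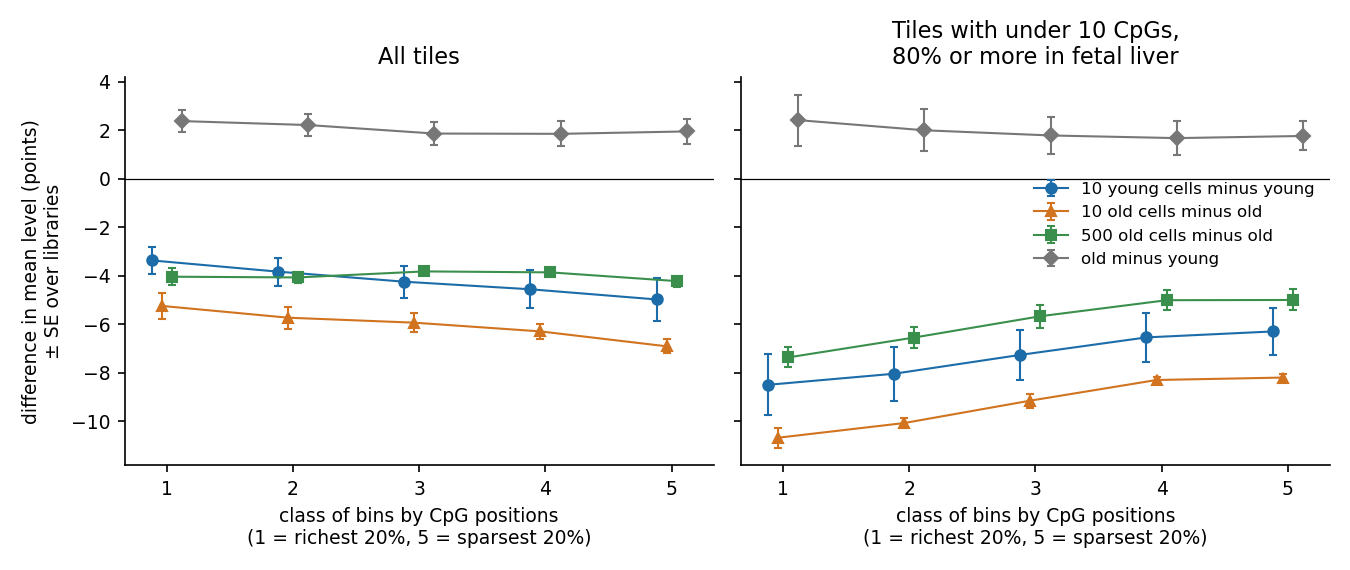
Difference in mean level in percentage points (y axis, ± SE over libraries) for 4 comparisons in 5 classes of bins from the richest to the sparsest in CpG positions (x axis), over all tiles (left) and over tiles with fewer than 10 CpGs at 80% or more in fetal HSCs (right). On the right the loss after transplantation shrinks from the richest to the sparsest class, for example from -10.7 to -8.21 points with 10 old cells, and on the left it does not.

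Nearly every bin took part in the loss, in the rich part and elsewhere. Among the 482, 448 had all 3 libraries of 10 young cells below both young libraries, against a background of 93.4% of all 1080 bins with 20 or more tiles, so the rich share of 92.9% was near the background. For 10 old cells against old it was 479 bins (99.4%, background 99.3%), and for 500 old cells 475 (98.5%, background 98.1%), also near the background. Old HSCs were above young HSCs without overlap in 461 bins, or 95.6%, with a background of 93.1%. For young against fetal HSCs, 156 rich bins were higher and 123 lower without overlap, or 32.4% and 25.5%, against backgrounds of 23.7% and 33.4%. In that comparison the median difference was 0.133 points in rich bins and -0.489 in the 598 other bins with enough tiles. With 2 doses of 5-FU, 58 rich bins lay below the 0-dose libraries without overlap (12.03%, background 10.3%), and with 4 doses 87 lay above (18.05%, background 21%).

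**Figure D5:**
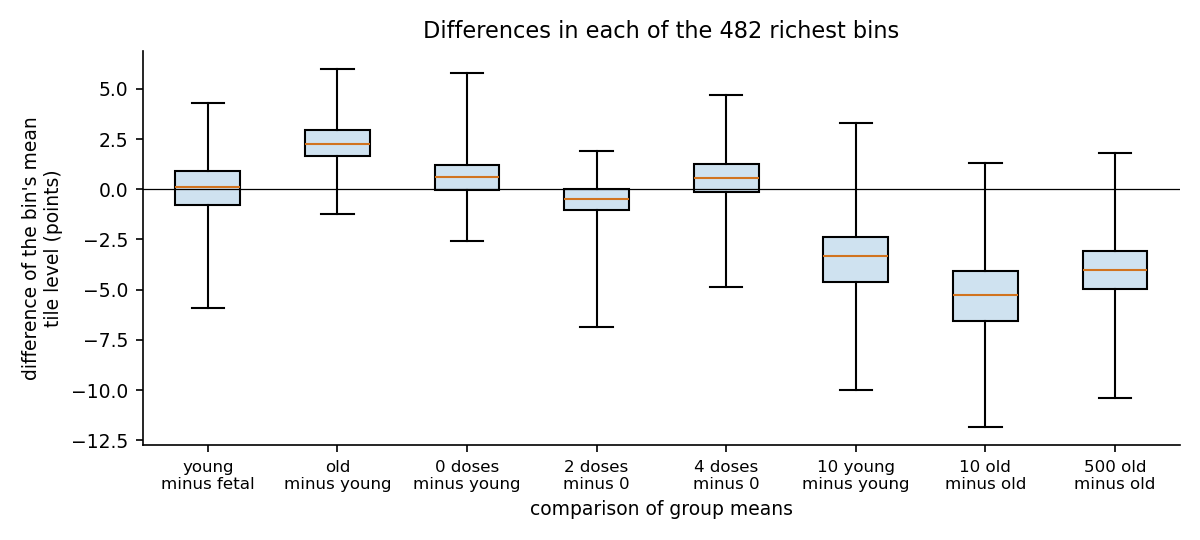
Distribution over the 482 richest bins of the difference in mean tile level between group means, in percentage points (y axis), for 8 comparisons (x axis); boxes span the quartiles with the median as a line and whiskers reach the lowest and highest bin. Old minus young is above 0 in 479 bins, and the 3 transplantation comparisons are below 0 in 475, 481 and 481 bins. Among the 598 other bins with enough tiles, old minus young is above 0 in 592. The 3 transplantation comparisons are below 0 in 585, 598 and 597 of them, so these directions are not particular to the richest bins.

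Bins with more low tiles showed smaller losses. Across the 482 bins, the share of tiles under 20% in fetal HSCs had a Spearman's rho of 0.622 with the difference after 10 young cells and 0.689 with that after 10 old cells, as a description across bins. The number of CpG positions itself had a rho of 0.132 and 0.135 with these differences. Low tiles that could be matched stood at a mean of 2.90% in young and 4.11% in old HSCs. They had little to lose, so the correlations with the share of low tiles were in part fixed in advance. The bin with the most positions, on chromosome 10 from 79000001, read 30.5% ± 0.453 (SD, n = 2) in young HSCs and 29.1% ± 0.351 (n = 3) after 10 young cells. It read 32.6% ± 0.351 (n = 2) in old HSCs and 29.6% ± 0.797 (n = 2) after 10 old cells. In that bin 63.3% of 139 tiles were low.

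The 3 lowest rich bins after 10 young cells lay on chromosomes 4, 6 and 1. On chromosome 4, 152000001 to 153000000, young libraries read 74.2% and 76.4% and those of 10 young cells 67.3%, 67.6% and 60.9%, a difference of -10.01 points where like tiles elsewhere gave -6.88. Over other settings this value ran to -5.98. Chromosome 6, 114000001 to 115000000, differed by -9.57 points and chromosome 1, 137000001 to 138000000, by -7.90, against -5.38 and -4.18 in like tiles. The value on chromosome 1 shrank to -1.62 points with 5 or more CpGs per tile. Low tiles made up 10.7%, 11.5% and 43.2% of the 3 bins. The bin on chromosome 4 was also among the 3 lowest for 10 old cells (-11.5 points) and 500 old cells (-10.4, and -5.28 at 10 reads per CpG). The lowest of all for old cells was chromosome 5, 36000001 to 37000000, where old libraries read 56.7% and 55.8% and those of 10 old cells 44.1% and 44.7%. Its differences were -11.8 points for 10 cells and -10.4 for 500, against -6.06 and -4.28 in like tiles, and it had the largest old minus young difference as well, 6.01 points. With 5 or more CpGs per tile these 3 values were -6.14, -4.24 and 2.32 points. Bins so named were picked for their size of change and lie at an extreme by choice. The same old libraries enter all 3 differences of the chromosome 5 bin and both old-cell differences of the chromosome 4 bin. Their places in several lists are therefore not independent.

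In 3 rich bins all libraries of 10 young cells lay above both young libraries (0.622%, background 0.648%). On chromosome 18, 37000001 to 38000000, the young libraries read 51.2% and 52.7% and those of 10 young cells 54.7%, 56.3% and 54.8%. The difference was 3.30 points (1.63 to 5.84 over other settings), where like tiles elsewhere gave -2.82, and the libraries did not overlap. The same bin was at 50.3% ± 0.427 (SD, n = 2) in fetal and 57.7% ± 0.874 (n = 2) in old HSCs. The transplanted young cells thus lay between young and old, but so did untransplanted groups. The 0-dose group read 54.8% ± 0.704 (n = 3), the 2-dose group 53.4% ± 1.07 and the 4-dose group 57.1% ± 2.30. On chromosome 6, 52000001 to 53000000, where 87.0% of tiles were low, the level was 10.6% ± 0.368 (n = 2) in fetal, 13.9% ± 1.16 (n = 2) in young and 15.5% ± 0.588 (n = 2) in old HSCs, and 16.3% ± 1.04 (n = 3) after 10 young cells. The 0-dose group also read 17.2% ± 0.101 (n = 3) there. A difference of 1.58 points on chromosome 12, 19000001 to 20000000, turned to -2.46 points when the 5-FU libraries were not used in choosing CpGs, a setting chosen after seeing the data.

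Between fetal and young HSCs the largest upward difference of a bin was 4.27 points on chromosome 14, 122000001 to 123000000, where fetal libraries read 27.3% and 27.7% and young libraries 31.3% and 32.2%. It was 0.639 points without the 5-FU libraries, 0.870 at 10 reads and 1.52 with 5 or more CpGs per tile. Chromosome 2, 33000001 to 34000000, and chromosome 16, 30000001 to 31000000, were 4.09 and 4.06 points higher in young HSCs. Differences of single bins are descriptions without a test. The largest loss, a difference of -5.89 points, was on chromosome 4, 62000001 to 63000000, where both fetal libraries read 55.5% and the young libraries 48.5% and 50.6% (-5.27 to -3.69 over other settings). In these 4 bins like tiles elsewhere gave 0.319, 0.192, 0.115 and -0.932 points. Chromosome 2, 71000001 to 72000000, was 29.7% ± 0.613 (SD, n = 2) in young HSCs, a difference of -4.61 points from fetal that ran from -4.81 to -0.528 over other settings, and stood at 34.4% ± 1.01 (SD, n = 2) in old HSCs, close to its fetal level of 34.3% ± 0.359 (n = 2). Apart from chromosome 5, the largest old minus young differences were 5.77 points in the chromosome 18 bin named above and 5.60 points on chromosome 15, 101000001 to 102000000 (3.66 to 5.76 over other settings). In the chromosome 18 bin, this difference and the gain after 10 young cells were taken against the same young libraries.

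Single tiles were tested with a quasi-binomial model over all autosomal tiles, and a tile was called where its adjusted p was below 0.05 and its groups differed by 10 points or more. Tile p-values drew mostly on spread pooled over tiles. It counted for 28.7 degrees of freedom against 3 of the tile's own libraries for fetal, young and old. With transplanted groups the numbers were 12.5 and 7. From fetal to young HSCs, 1324 of 42212 rich-bin tiles gained (3.14%, background 2.18%) and 1990 lost (4.71%, background 4.33%). Old against young gave 2281 gains (5.40%, background 4.21%) and 134 losses (0.317%, background 0.276%). With 10 young cells 491 of 37251 tiles gained (1.32%, background 1.02%) and 5493 lost (14.7%, background 16.3%). With 10 old cells 310 gained (0.832%, background 0.558%) and 7877 lost (21.1%, background 22%). With 500 old cells 195 gained (0.523%, background 0.358%) and 3207 lost (8.61%, background 7.46%). In all 5 comparisons the rich-bin share of gained tiles was above that of all tiles, and the share of lost tiles was below it only with 10 cells.

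Shares of called tiles were also set against those of like tiles in other bins. Lost tiles made up 14.8% of matched rich-bin tiles and 13.7% of like tiles with 10 young cells. After 10 old cells the shares were 21.2% and 18.3%, and after 500 old cells 8.62% and 6.20%. Gains with age made up 5.24% and 4.39%, and gains from fetal to young HSCs 3.00% and 2.30%. These shares are descriptions without a test, and their differences depended on single libraries and on the model. The difference in lost tiles was 1.07 points with 10 young cells, 0.111 without young replicate 2 and 0.175 with limma. With 10 old cells it was 2.95 points and 0.513 without old replicate 1, and with 500 old cells 2.42 points and 0.147 without old replicate 1. For gains with age the difference was 0.848 points, 0.177 without old replicate 1 and 0.142 with the shift of each library removed. Counts of called tiles depended on single libraries. For old against young the total of 2415 was 959 without old replicate 1 and 1554 without young replicate 1. For 10 young cells the total of 5984 was 2092 without young replicate 1 and 203 without young replicate 2. For 10 old cells the total of 8187 was 701 and 2084 without old replicates 1 and 2, and 2728 and 4967 without replicates 1 and 2 of the transplanted cells. For 500 old cells the total of 3402 was 159 and 585 without old replicates 1 and 2, and 1101 without replicate 1 of the transplanted cells. With the shift of each library at intermediate CpG-rich tiles removed, 66.6% of the old-young calls were gains in place of 94.5%, and old against young fell to 920 tiles.

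In each of the 3 transplantation comparisons the rich bin with the most lost tiles was chromosome 4, 140000001 to 141000000, inside the longest run of rich bins, with 40, 50 and 27 of 150 tested tiles. Over all tested tiles, 16.3%, 22% and 7.46% were lost. Such a ranking by count favours bins with many tested tiles. The 10 leading bins held 5.19%, 5.08% and 6.21% of the rich-bin losses. Gains from fetal to young and from young to old both peaked in number on chromosome 11, 96000001 to 97000000, with 15 and 17 of 146 tiles. Over all tested tiles, 2.18% and 4.21% gained.

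Some of the strongest tiles shared a bin. In the bin on chromosome 8 from 122000001, ranked 48 by CpG positions, the tile from 122906001 to 122907000 read 90.9% and 88.2% in fetal HSCs and 2.18% and 2.83% in young HSCs, a difference of -87.04 points (quasi-binomial adjusted p = 1.01e-13). A tile 4 kb upstream, 122902001 to 122903000, read 86.4% and 87.6% in fetal, 65.1% and 71.1% in young, and 23.3% and 17.2% in old HSCs, a loss with age of 47.8 points (difference -47.8, adjusted p = 2.16e-06). The first tile was thus already low in young HSCs, while the second was much lower in old than in young HSCs. Fetal HSCs came from liver and the others from bone marrow, so age and organ cannot be told apart in the first difference. The adjusted p-values of both tiles were larger in some other settings, where they stayed below 0.05. In transplanted young cells the second tile read 24.5%, 47.7% and 43.1% with 10 cells, 46.1% with 50 and 56.7% with 500, all between the old and young libraries.

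In the chromosome 11 bin ranked 7, from 115000001, the tiles 115967001 to 115968000 and 115969001 to 115970000 gained after transplantation of old cells. The first read 27.2% and 31.1% in old HSCs, 90.6% and 82.0% after 10 old cells and 89.8%, 90.03% and 86.6% after 500 (adjusted p = 4.98e-05 and 7.60e-06). In young HSCs this tile was already at 68.2% and 61.8%, and after 10 young cells at 89.3%, 86.8% and 90.6%. The second read 18.6% and 14.48% in young and 7.41% and 11.9% in old HSCs. It stood at 37.4% and 39.1% in fetal HSCs and at 32.8%, 64.4% and 38.7% in the 0-dose libraries, so young and old HSCs were the lowest groups apart from 1 library of the 4-dose group at 18.1%. The bin on chromosome 8 from 125000001, ranked 29, held 2 named tiles of opposite course. From 125806001 the old libraries read 99.2% and 80.8% and the 10-old-cell libraries 32.6% and 54.3%, while from 125198001 the old libraries read 19.7% and 13.7% and the 10-old-cell libraries 78.6% and 73.1%. The tile from 125806001 was named for old against young HSCs and not for 10 old cells. It had as few as 22 reads in a library of that comparison, and its call there did not hold in every other setting.

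At most of the tiles named for losses after transplantation of old cells, young HSCs lay below old HSCs. These tiles were picked for a large fall from the old libraries, which favours tiles where those libraries read high. The comparison with young HSCs uses the same old libraries, so it is a description and not separate evidence. At chromosome 18, 38625001 to 38626000, young HSCs read 5.45% and 14.6% and old HSCs 78.1% and 80.8%. The 3 libraries of 500 old cells read 17.9%, 18.9% and 8.82% (quasi-binomial adjusted p = 0.000203), over as few as 26 reads. On chromosome 17, 26191001 to 26192000, young HSCs read 40.5% and 20%, old HSCs 95% and 82.8%, and those after 10 old cells 13.2% and 30.7% (adjusted p = 0.000505), over as few as 29 reads. Both young libraries were also below both old ones on chromosome 1 from 93350001 (56.4% and 60% against 94.3% and 93.9%). The same held on chromosome 4 from 149389001 (57.8% and 75.7% against 90.3% and 82%). It held as well on chromosome 14 from 56161001 (35.1% and 75.5% against 96% and 92.0%). On chromosome 3 from 51549001 young and old overlapped (40% and 79% against 75.5% and 65.9%). Tiles named for losses after 10 young cells started from a high level in both ages. On chromosome 7, 17369001 to 17370000, young HSCs read 90.0% and 89.8% and old HSCs 86.7% and 89.9%, while all 11 transplanted libraries read between 28.3% and 58.8%. At chromosome 5, 114822001 to 114823000, the young libraries read 72.8% and 81.5% and those of 10 young cells 16.3%, 28.2% and 12.3% (adjusted p = 3.00e-05). The libraries of old cells read 80.5% or more before and 21.5% to 45.5% after transplantation there.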

How the data were processed

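RRBS was read in 25 libraries, with a protocol adapted to small cell numbers per the labels' protocols. The deposited files list, per CpG on mm9 (per the submitters' processing notes), methylated and total reads and a score. The authors' score was checked against these reads, matched their ratio in every row after scaling, and was not used further. Not given in the sources used here are the aligner, the methylation caller, filters and duplicate handling. Reads carry no molecular identifiers and are not independent molecules, so counting error at a given depth is not the whole of the error.

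Positions were counted from the 25 files as deposited. In the ranked bins, 242772 CpGs of the richest and 325739 of the other bins had 5 or more reads in all libraries. A tile's level is its methylated over total reads. Matching used classes of CpG number and 10-point classes of fetal level, and strata with 20 or more tiles of other bins. Single values per library were compared by two-sided exact permutation tests, with Benjamini-Hochberg adjustment over 13 tests and, for those added, over 3.

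Tiles were fitted with a quasi-binomial model with Williams weights. Dispersions were moderated by limma 3.58.1 in R 4.3.3 with a trend on depth and held at 1 or more. Fetal, young and old shared a fit (6 libraries, 100896 tiles), as did young, old and transplanted groups (15 libraries, 90382 tiles); F-test p-values were adjusted over all tiles. Code used Python 3.11.15, numpy 2.4.6, scipy 1.17.1 and pandas 2.3.3, and was tested on simulated reads. Bins named were the 5 with the most positions and, per tile comparison, up to 3 highest and 3 lowest without overlap between libraries; tiles named were the 3 largest gains and losses without overlap and with 20 or more reads per library. Alternatives changed read and CpG minimums, matching, depth limits, the share of bins, the tile model and single libraries. Regions and lists were chosen with earlier results of these data known. An annotation of mm9 was not used here, so regions carry no gene names or sequences.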

Additional observations from a re-analysis of the deposited data

Results flagged for a closer look

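Sets of 5 or 6 libraries were examined for means of the rich bins and for the named tiles. Of the 88 sets, 7 held 1 library that stood apart from the others, where chance alone gives about 1 in 20. All 7 were at named tiles. Among transplanted old cells, replicate 3 of 500 cells stood apart at 4 tiles. It read 59.4% at chromosome 16, 92695001, where the other 5 libraries lay between 74.4% and 83.0%, and 19.4% at chromosome 2, 33616001, where they lay between 50.0% and 66.8%. It read 40% at chromosome 11, 115969001, against 63.0% to 72.3%, and 38.3% at chromosome 4, 149389001, against 16.9% to 21.7%. Replicate 1 of 10 old cells read 22.9% at chromosome 8, 122902001, against 33.9% to 38.5%. Among transplanted young cells, replicate 3 of 10 cells read 20.4% at chromosome 8, 123168001, against 10.9% to 13.2%, and the 50-cell library read 47.6% at chromosome 5, 124567001, against 0% to 8.33%.

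At 3 tiles transplanted cells moved in opposite directions by donor age. At chromosome 8, 125806001, all 5 libraries of young cells were above young HSCs and all 6 of old cells below old HSCs, and the effects differed by -73.3 points (21.2 for young and -52.2 for old donors). At chromosome 17, 24738001, the same held with -69.3 points (45.5 and -23.8). At chromosome 9, 119469001, the effects were -35.1 for young and 17.4 for old donors, 52.5 points apart. These differences were not tested, and the tiles were named for a large difference between old and young HSCs, which share these controls.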

How the results depend on the processing

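The loss in rich bins after transplantation and its matched form kept their direction when each library was left out (-3.95 to -3.51 and -0.716 to -0.617 points, adjusted exact permutation p at most 0.0442). Matched on CpG number only, the matched difference turned to 0.162 points over both donor ages, 0.186 for young and 0.137 for old donors, while tiles at 80% or more kept -1.30; the cause was not tested. With reads summed, the loss was -2.94 points (adjusted exact permutation p = 0.101), and bone marrow minus fetal liver turned to -0.657. The 5-FU difference turned to 0.295 away from low tiles (chosen after seeing the data), to between -0.375 and 0.343 with 1 library left out (0.343 without 0-dose replicate 1, 0.167 without 2-dose replicate 2), and in matched form to 0.0173 with 5 or more CpGs per tile. Bin chromosome 12, 19000001, turned to -2.46 without the 5-FU libraries; of the other values of named bins, 42 moved beyond the spread between replicates and 41 did not. Gained shares with 10 young cells, rich minus like tiles, turned to -0.120 in the highest 10% of bins, -0.00864 with the replicate block, -0.0276 at 10 reads, and -0.0120, -0.000211 and -0.0198 without each transplanted replicate (up to 0.0538 without young replicate 1); lost shares of old against young turned to -0.00331 at 10 reads.

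Called tiles in rich bins, in the order young against fetal, old against young, 10 young, 10 old and 500 old cells, numbered 460, 35, 593, 950 and 251 in a fit of all 25 libraries, which tests fewer tiles. In the highest 10% of bins they numbered 2064, 1539, 3510, 4842 and 2119. Limma gave 1973 and 690 for the first 2 and 5770 for the last. The library shift removed gave 920 for old against young and 2187 for 500 old cells, and 10 reads gave 5428 for 10 old cells. Leaving out 1 library gave 2332 to 3317, 959 to 3099, 203 to 6092, 701 to 4967 and 159 to 3244. Same-numbered libraries did not deviate together (correlations -0.0730 to 0.0544). This showed no pairing by number but cannot exclude it, because noise in the read counts lowers such correlations. With the replicate block the counts were 3695, 2971, 6508, 9412 and 4261. Depth limits tiles with few reads.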
